A study of Mus musculus with 8 samples.

Results

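Immature neural genes are genes that neural progenitors, newborn neurons and fetal cells use and that decline after birth. Here they are 10 genes picked by name, Nrep, Fabp7, Cd24a, Sox4, Sox11, Dcx, Hmga2, Hmgn2, Lin28b and Igf2bp1, of 41325 genes in the deposited tables. They were picked with earlier results of these data known, so shares of members set beside shares of all genes are descriptions only. The 8 libraries are polyadenylated RNA of mouse spinal cord at postnatal day 14. Of these, 4 came from a triple knockout labelled Mir34a-/-; Mir34bc-/-; Mir 449-/- (TKO), 2 of lumbar and 2 of thoracic cord, and 4 from C57BL/6J wild type (WT), again 2 of each segment. No treatment is given in the labels, and they name no littermate control, no sex and no mouse for any library. It is thus unknown whether both segments were cut from the same animals. The main fit and every SD treat the 8 libraries as independent, and each n below counts libraries, not mice. Each p-value below reflects how far these libraries spread, a spread that may be technical in part or in whole. The deletions are given for the whole animal, with no driver line or cell type.

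In the developing cord, dividing radial glia give rise to neurons and then to glia, and newborn neurons migrate and extend axons while they carry a transient set of cytoskeletal, adhesion and transcription factor genes. Fetal programmes of growth and chromatin run beside them, in part under the let-7 microRNAs, which accumulate as tissues mature and which LIN28 proteins hold back. The miR-34 and miR-449 microRNAs share a seed, the stretch of a microRNA that pairs with target RNAs, and are best known for roles in cells that leave the cell cycle and in cells with motile cilia.

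Sequences are shown first for the deleted family, since its seed sets which messages it can pair with. The mature microRNAs are from RefSeq on GRCm38.p6, 5′ to 3′, with the seed, bases 2 to 8, in capitals. miR-34c-5p and the miR-449b arm belong to the same family.

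miR-34a-5p: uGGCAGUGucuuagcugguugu
miR-34b-5p: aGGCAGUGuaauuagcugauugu
miR-449a-5p: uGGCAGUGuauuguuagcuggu
miR-449c-5p: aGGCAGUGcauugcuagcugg

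All 4 carry the seed GGCAGUG, and its reverse complement, CACTGCC, was searched for in the longest annotated 3′ UTR of each member (GENCODE vM21, GRCm38). It occurred 1 time each in Sox4, Sox11 and Dcx and in none of the other 7 members. The next lines show these matches inside 30 bases of the UTR, with the match in capitals.

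Sox4 3′ UTR: gctaatcctgtccgtCACTGCCtgtcaggt
Sox11 3′ UTR: agccctcccctccccCACTGCCccctcccc
Dcx 3′ UTR: tagaaatcatgctctCACTGCCaaacagaa

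Among genes whose 3′ UTR is within 25% of the member's length, 27.4% held at least 1 such match at the length of Sox4, 46.9% at that of Sox11 and 49.6% at that of Dcx. A match in these 3 genes is therefore common for UTRs of their size, and it is a description of letters only. The other seed shown is that of let-7, because Hmga2, Lin28b and Igf2bp1 are textbook let-7 targets and Lin28b blocks let-7 maturation.

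let-7a-5p: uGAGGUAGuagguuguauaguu
Hmga2 3′ UTR, first match: gccgacattcaatttCTACCTCagcatcag
Lin28b 3′ UTR, first match: acccgggcgggaagtCTACCTCatgcaagc
Igf2bp1 3′ UTR, first match: gctgtgcgaagtaaaCTACCTCaaggtgtg

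The let-7 seed match CTACCTC occurred 4 times each in Hmga2, Lin28b and Igf2bp1, 1 time in Dcx and in no other member. Of genes with UTRs of like length, 0.12%, 0.21% and 0.25% held 4 or more at the lengths of Hmga2, Lin28b and Igf2bp1. Hmga2, Lin28b and Igf2bp1 held no CACTGCC, and Dcx held 1 match to each seed.

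Promoter sequence in RefSeq, 250 bases before to 50 after the start, was at hand for 7 members, and those of Sox4 and Sox11 are shown because these related factors, alone among the 7, hold the E-box CAGCTG, a motif bound by neurogenic basic helix-loop-helix factors. It is in capitals, the build is GRCm38.p6, and both genes lie on the minus strand.

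Sox4 promoter, chr13:28953650-28953949: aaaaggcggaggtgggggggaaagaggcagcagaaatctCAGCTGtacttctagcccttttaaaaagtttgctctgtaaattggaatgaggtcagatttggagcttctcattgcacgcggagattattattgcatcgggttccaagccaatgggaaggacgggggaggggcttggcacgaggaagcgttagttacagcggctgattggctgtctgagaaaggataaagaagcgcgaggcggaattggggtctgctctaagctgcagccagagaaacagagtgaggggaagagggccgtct
Sox11 promoter, chr12:27342669-27342968: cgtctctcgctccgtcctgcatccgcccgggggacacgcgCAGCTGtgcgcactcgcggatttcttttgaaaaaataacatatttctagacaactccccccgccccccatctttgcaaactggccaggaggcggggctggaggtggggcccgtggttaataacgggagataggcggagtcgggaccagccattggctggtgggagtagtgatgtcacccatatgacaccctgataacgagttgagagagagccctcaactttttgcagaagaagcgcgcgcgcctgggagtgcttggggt

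CAGCTG stood in 16.1% of all RefSeq promoters of this length, on either strand. Of the other motifs searched on both strands, CCAAT was in 6 of the 7 promoters (37.9% of all promoters), CACGTG in Hmgn2 and Lin28b (7.24%) and TATAAA in Dcx (14.2%). The RBPJ motif GTGGGAA, the SOX motif AACAAAG and the E2F motifs TTTGGCGC and then TTTCCCGC were in none of the 7. No other motif overlapped the E-box in Sox4 or Sox11, and no motif was tested against expression.

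Levels were read as CPM, total gene reads scaled to library size with TMM factors, from 16195212 to 20907819 gene reads a library, and a count of 3 reads came to between 0.153 and 0.174 CPM. None of the 6 listed microRNA precursors of the deleted loci had a read in any library, TKO or WT, so they check no label. Cdc20b, the gene that hosts Mir449, had 10 and 16 reads in lumbar TKO and 8 and 18 in thoracic TKO, against 0 and 2 in lumbar WT and 0 and 1 in thoracic WT. Replicate 2 of TKO stood apart in both segments. Intron reads were 6.23% and 6.69% of gene reads there, against 4.39% to 5.22% in the other 6 libraries, and mitochondrially encoded transcripts were 4.99% and 6.53%, against 9.45% to 16.8% in the others.

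Taking the 10 genes together, their summed level was 441 to 716 CPM in TKO libraries and 853 to 1040 CPM in WT libraries, with no overlap. Most of that sum came from Nrep, Fabp7 and Hmgn2, at means of 344, 264 and 166 CPM in WT. Taken singly, Cd24a, Sox11, Dcx, Lin28b and Igf2bp1 overlapped between the genotypes. In a bulk tissue, fewer cells that express these genes and less RNA per cell cannot be told apart. Per unit of transcript length, in the deposited RPKM averaged over all 8 libraries, the order was Fabp7 (154), Nrep (99.1), Hmgn2 (44.7), Cd24a (24.8), Sox4 (5.86), Dcx (2.56), Sox11 (0.999), Lin28b (0.474), Hmga2 (0.234) and Igf2bp1 (0.00563). Over the libraries, Fabp7 at 70.3 to 232 RPKM overlapped Nrep at 55.8 to 138 RPKM. Hmgn2 at 30.9 to 55.9 RPKM touched the range of Nrep and just overlapped Cd24a at 18.2 to 31.6 RPKM, and Lin28b at 0.37 to 0.592 RPKM overlapped Hmga2 at 0.106 to 0.384 RPKM. Sox11 at 0.599 to 1.4 RPKM lay above Lin28b and below Dcx at 1.46 to 3.57 RPKM, which in turn lay below Sox4 at 3.8 to 7.8 RPKM.

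**Figure D1:**
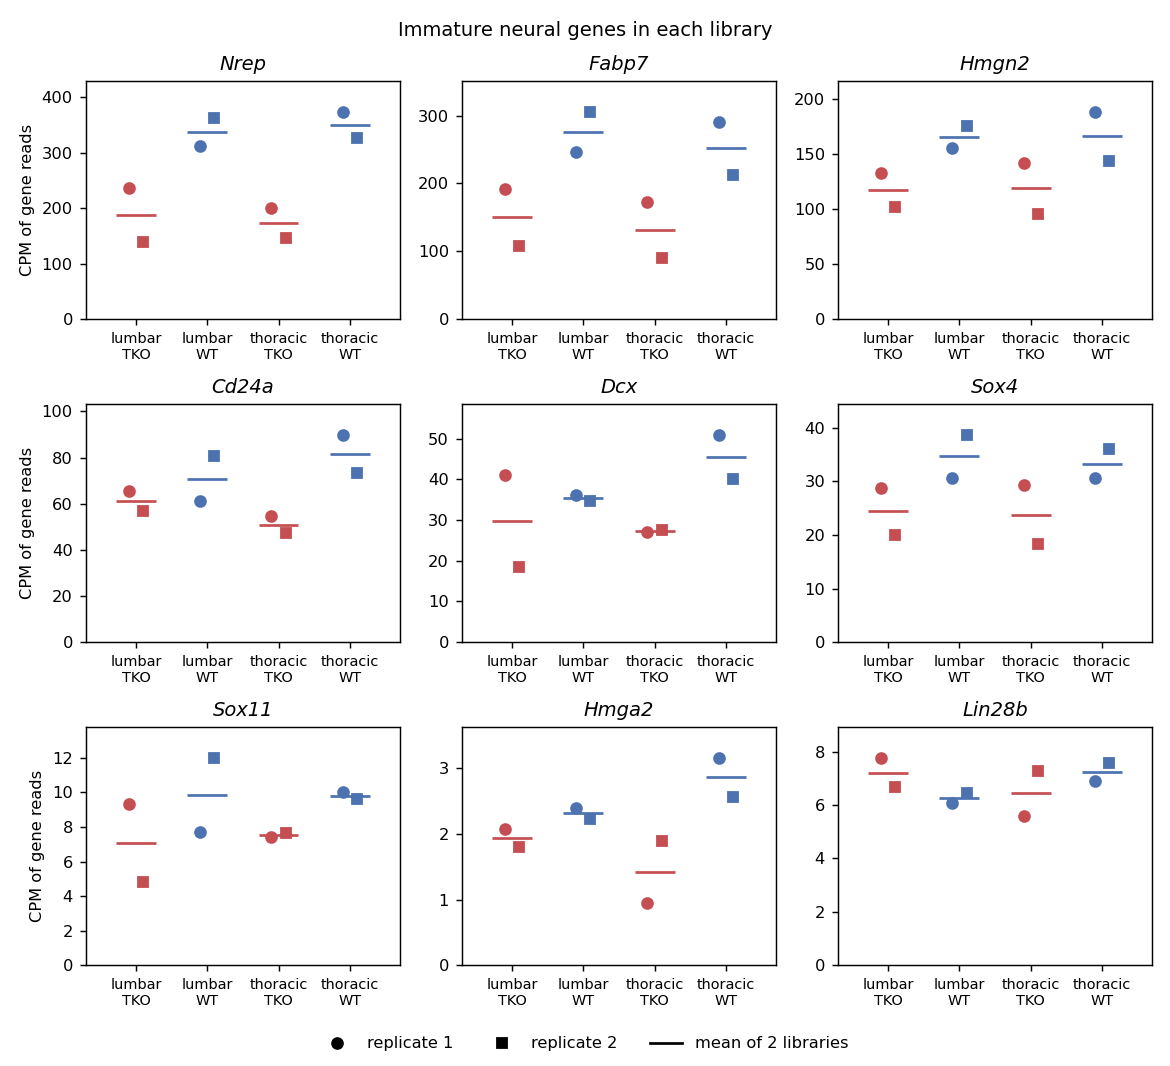
CPM of total gene reads for the 9 members with enough reads, by group; TKO is red, WT is blue, points are libraries and lines are means of 2 libraries. All 4 TKO libraries lie below all 4 WT libraries for Nrep, Fabp7, Hmgn2, Sox4 and Hmga2, while lumbar TKO replicate 1 reaches the WT levels of Dcx, Cd24a and Sox11 and Lin28b overlaps between the genotypes in thoracic cord but not in lumbar cord, where TKO is higher. On exon reads alone, not drawn here, Lin28b overlaps in lumbar cord as well.

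Two-sided tests were edgeR's quasi-likelihood tests on total gene reads, with Benjamini-Hochberg adjustment over the 17067 genes that passed a filter on low counts. Of the 10 members, 9 passed it and Igf2bp1 did not. None of the 9 was called at an adjusted p under 0.05 in TKO against WT over both segments, where 0.357% of all genes were called. At an unadjusted p under 0.05, 6 of 9 were lower, against 8.79% of all genes. Their median log2 change was -0.49, against 0.00 over all genes tested, and 8 of 9 log2 changes were below 0, as were 49.9% of all genes. With DESeq2, 2 of 9 were called, Nrep (adjusted p = 0.000167) and Fabp7 (adjusted p = 0.00767), both lower in TKO. It called lower 2.00% of the 14750 genes to which it gave an adjusted p. With limma on log2(RPKM + 0.5), none was called. Because the members were chosen with earlier results of these data known, these shares and medians are not independent evidence.

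Nrep and Fabp7 had the log2 changes farthest from 0 of the 9. Nrep encodes a small protein of the developing and regenerating nervous system and lies on chromosome 18. Its level was 236 and 140 CPM in lumbar TKO and 200 and 146 CPM in thoracic TKO, against 312 and 363 CPM in lumbar WT and 373 and 327 CPM in thoracic WT. Every TKO library lay below every WT library, and both replicate 2 libraries of TKO were the lowest. The mean was 181 ± 45.9 CPM in TKO and 344 ± 29.1 CPM in WT (SD, n = 4 libraries each, both segments pooled). The log2 change was -0.93 (SE 0.182, unadjusted p = 0.000618, adjusted p = 0.0765 in edgeR's quasi-likelihood test), which missed the threshold.

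Fabp7 encodes the brain lipid-binding protein of radial glia and of early astrocyte and oligodendrocyte lineages, and lies on chromosome 10 at 57784881 to 57788450 (mm10), plus strand. It was at 192 and 108 CPM in lumbar TKO and 172 and 89.6 CPM in thoracic TKO, against 246 and 305 CPM in lumbar WT and 291 and 212 CPM in thoracic WT. Again the genotypes did not overlap, though TKO replicate 1 came near the lowest WT library. Means were 140 ± 49.5 CPM in TKO and 264 ± 42.3 CPM in WT (SD, n = 4 each), a log2 change of -0.91 (SE 0.247, edgeR adjusted p = 0.141). Nearly all its reads lay in exons, as did those of Nrep, with intron shares of 1.56% and 1.75%.

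Genes of newborn neurons were next. Cd24a, which encodes a membrane-anchored glycoprotein of newborn neurons and ependymal cells and is also carried by the mouse red cell lineage, lies on chromosome 10 at 43578284 to 43584265, plus strand. It was at 65.7 and 56.9 CPM in lumbar TKO and 54.6 and 47.3 CPM in thoracic TKO, against 61.2 and 80.7 CPM in lumbar WT and 89.8 and 73.5 CPM in thoracic WT. Lumbar TKO replicate 1 lay above lumbar WT replicate 1, and the other 3 TKO libraries lay below all WT libraries. The log2 change was -0.45 (SE 0.136, edgeR adjusted p = 0.166). The 9 red cell genes in the tables had a median log2 change of -1.57 and summed to 271 to 344 CPM in TKO and 411 to 612 CPM in WT, edgeR called Hba-a2 lower (adjusted p = 0.0356), and their part in the Cd24a difference was not tested.

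Sox4 and Sox11 encode the SoxC transcription factors, which switch on neuronal genes in cells that have left the cycle. Sox4 (chromosome 13, 28948919 to 28953713, minus strand) was at 28.8 and 19.9 CPM in lumbar TKO and 29.2 and 18.3 CPM in thoracic TKO, against 30.6 and 38.6 CPM in lumbar WT and 30.5 and 36 CPM in thoracic WT. No libraries overlapped, but TKO replicate 1 lay close to the lowest WT library in each segment. Sox11 (chromosome 12, 27334264 to 27342574, minus strand) was at 9.31 and 4.81 CPM in lumbar TKO and 7.43 and 7.68 CPM in thoracic TKO, against 7.70 and 12 CPM in lumbar WT and 10 and 9.62 CPM in thoracic WT. Lumbar TKO replicate 1 was inside the WT range for Sox11. The log2 changes were -0.50 for Sox4 (SE 0.189, edgeR adjusted p = 0.224) and -0.43 for Sox11 (SE 0.228, edgeR adjusted p = 0.321). Sox11 hung on single lumbar libraries: leaving out TKO replicate 1 gave -0.70, TKO replicate 2 -0.23 and WT replicate 2 -0.25. Sox4 shares its place with Gm26735 on the other strand, and the strand setting of the counts is not given in the sources used here.

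Dcx, the doublecortin gene, encodes a microtubule-associated protein of migrating neurons and lies on chromosome X at 143855842 to 143933311, minus strand. Its level was 41.2 and 18.5 CPM in lumbar TKO and 27.0 and 27.6 CPM in thoracic TKO, against 36.1 and 34.6 CPM in lumbar WT and 50.9 and 40.2 CPM in thoracic WT. Lumbar TKO held both the lowest library and a library above both of lumbar WT, while the thoracic genotypes did not overlap. The log2 change was -0.49 (SE 0.222, edgeR adjusted p = 0.27). Without lumbar TKO replicate 2 it was -0.26, and without lumbar TKO replicate 1 it was -0.82 (edgeR adjusted p = 0.0415), a call that rests on leaving out that library, in a fit that called 0.529% of all genes lower and assumes that the remaining lumbar TKO library varies like the other groups.

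Chromatin proteins formed the next pair. Hmgn2 encodes a protein that binds nucleosomes and is abundant in dividing and immature cells, and lies on chromosome 4 at 133964738 to 133968650, minus strand, the chromosome that also holds Mir34a. It was at 133 and 102 CPM in lumbar TKO and 142 and 95.4 CPM in thoracic TKO, against 155 and 175 CPM in lumbar WT and 188 and 144 CPM in thoracic WT, with no overlap of genotypes, and TKO replicate 2 was lowest in both segments. The log2 change was -0.49 (SE 0.164, edgeR adjusted p = 0.191). Only 41.8% of its reads were placed uniquely, so the count can take in reads of near-identical copies, and with unique reads the log2 change was -0.45 (edgeR adjusted p = 0.215).

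Hmga2 encodes an AT-hook protein of fetal and stem cells and lies on chromosome 10 at 120361275 to 120476469, minus strand. It was near the lower end of detection, with 40 and 31 gene reads in lumbar TKO and 17 and 34 in thoracic TKO, against 43 and 42 in lumbar WT and 62 and 50 in thoracic WT. In CPM the genotypes did not overlap, at 0.942 to 2.07 CPM in TKO and 2.23 to 3.16 CPM in WT. The log2 change was -0.63 (SE 0.251, edgeR adjusted p = 0.231). Intron reads made up 31.1% of its reads in TKO and 18.3% in WT, and the antisense transcripts 1700006J14Rik and 9230105E05Rik and the microRNA Mir763 lie within its span. In TKO replicate 2, introns held 10 of 31 reads in lumbar and 16 of 34 in thoracic cord, against 9 of 40 and 3 of 17 in replicate 1. TKO replicate 2 also had the higher intron share over all genes. On exon reads alone, 31 and 21 in lumbar TKO and 14 and 18 in thoracic TKO, against 37 and 32 in lumbar WT and 56 and 36 in thoracic WT, the log2 change was -0.89 (SE 0.258, edgeR adjusted p = 0.167).

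The last 2 members encode fetal RNA-binding proteins. Lin28b, the inhibitor of let-7 maturation, lies on chromosome 10 at 45376620 to 45486395, minus strand. It was at 7.76 and 6.66 CPM in lumbar TKO and 5.60 and 7.28 CPM in thoracic TKO, against 6.09 and 6.43 CPM in lumbar WT and 6.89 and 7.56 CPM in thoracic WT. In these gene reads both TKO libraries were above both WT libraries in lumbar cord, as for 17.4% of all genes, and the genotypes overlapped in thoracic cord. On exon reads alone the lumbar genotypes overlapped too, at 109 and 56 reads in TKO and 76 and 86 in WT. The lumbar log2 change was then 0.04 (SE 0.295). Means were 6.83 ± 0.934 CPM in TKO and 6.74 ± 0.64 CPM in WT (SD, n = 4 each), a log2 change of 0.02 (SE 0.156, edgeR adjusted p = 0.95) whose sign turned to -0.10 on exon reads alone. Of its reads, 37.5% in TKO and 31.8% in WT lay in introns. In TKO replicate 2, whose intron share was higher over all genes, these were 59 of 115 reads in lumbar and 53 of 130 in thoracic cord. In TKO replicate 1 they were 41 of 150 and 33 of 101.

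Igf2bp1 encodes a fetal protein that binds and stabilises messenger RNAs and lies on chromosome 11 at 95957163 to 96005940, minus strand. It had 2 and 4 reads in lumbar TKO and 1 and 0 in thoracic TKO, against 1 and 1 in lumbar WT and 0 and 2 in thoracic WT. Those are 7 reads in TKO and 4 in WT over 4 libraries each, too few to test or to give a fold. A difference between genotypes was not detectable at this depth.

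**Figure D2:**
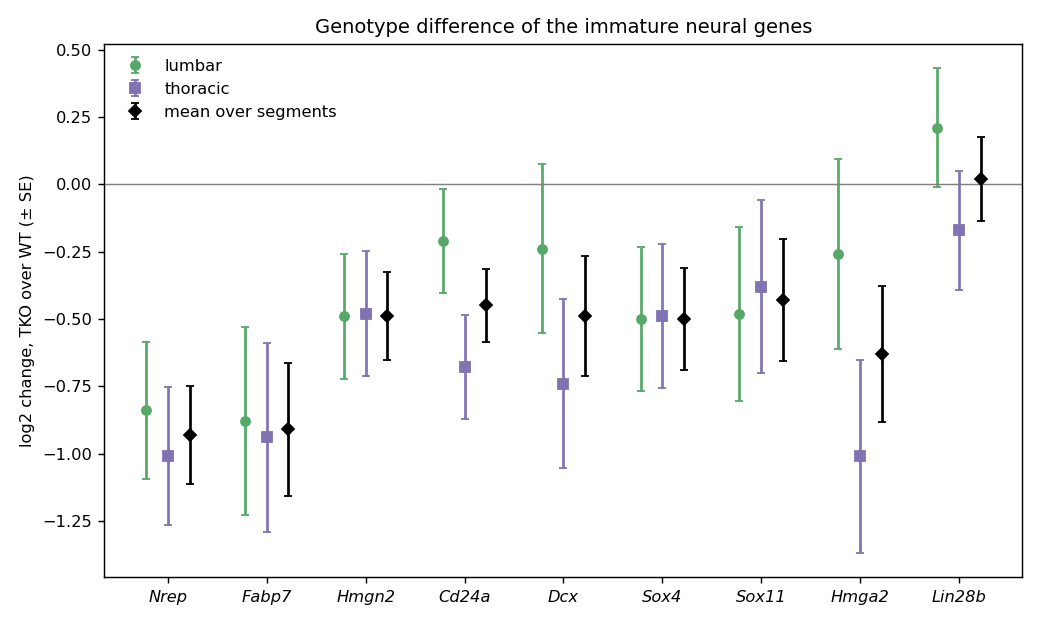
Log2 change of TKO over WT, with its standard error, from edgeR for 9 members in lumbar cord (green circles), thoracic cord (purple squares) and averaged over segments (black diamonds). Of the 9 averages, 8 lie between -0.93 and -0.43 and Lin28b lies at 0.02.

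In thoracic cord, all 9 log2 changes were below 0 (50.8% of all genes), from -1.01 for Nrep and Hmga2 to -0.17 for Lin28b, and 8 of 9 members had both TKO libraries below both WT libraries, as did 27.4% of all genes. Hmga2 moved to -1.60 without thoracic TKO replicate 2 and to -0.57 without replicate 1. Without replicate 2, Fabp7 was at -0.55, Hmgn2 at -0.22 and Sox4 at -0.19. None passed the adjusted threshold (0.0352% of all genes did), and 5 of 9 had an unadjusted p under 0.05 and a lower level in TKO (8.23% of all genes). DESeq2 called Nrep (adjusted p = 0.0126) and limma none. DESeq2 gave an adjusted p to 12765 genes, 8 members among them but not Hmga2, and called 1.07% of these genes lower. Nrep had an edgeR adjusted p of 0.197 and Cd24a one of 0.199.

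In lumbar cord, 8 of 9 log2 changes were below 0 (50.2% of all genes), from -0.88 for Fabp7 and -0.84 for Nrep to -0.21 for Cd24a. That of Lin28b was 0.21, and 0.04 on exon reads alone. Without lumbar TKO replicate 2, Fabp7 was at -0.52, Nrep at -0.51, Hmgn2 at -0.31, Sox4 at -0.26, Hmga2 at -0.16 and Sox11 at -0.08. Nrep, Fabp7, Sox4, Hmga2 and Hmgn2 did not overlap between genotypes with TKO lower, 5 of 9 against 17.1% of all genes. None was called by edgeR (0.0410% of all genes were), by DESeq2 or by limma, and 2 of 9, Nrep and Fabp7, had an unadjusted p under 0.05 and a lower level in TKO (2.71% of all genes). Over all 8 libraries the same 5 genes did not overlap, against 5.37% of all genes.

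Whether the genotype difference itself depended on segment was tested as the lumbar minus the thoracic log2 change. It ran from -0.10 for Sox11 to 0.75 for Hmga2, with Dcx at 0.50 and Cd24a at 0.47. Over the alternative settings these values spread widely, Sox11 from -0.66 to 0.31, Dcx from -0.21 to 0.97 and Hmga2 from 0.28 to 1.43. None of the 9 was called by edgeR, DESeq2 or limma, and none had an unadjusted p under 0.05 in edgeR, where 0.00586% of all genes were called and 3.50% had an unadjusted p under 0.05. The SE of 0.502 for Hmga2 shows how wide these differences are at 2 libraries a group.

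Between segments, with both genotypes averaged, thoracic minus lumbar log2 changes ran from -0.16 for Fabp7 to 0.12 for Dcx. Neither sign held over the alternative settings, which gave -0.44 to 0.07 for Fabp7 and -0.12 to 0.45 for Dcx. None of the 9 was called by edgeR, DESeq2 or limma, where 0.0820% of all genes were called by edgeR, and none had an unadjusted p under 0.05 (2.41% of all genes).

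Library by library, the members other than Lin28b varied together. After each member's log2 CPM was standardised over the 8 libraries, the average of these 8 members was 0.13 and -1.26 in lumbar TKO and -0.55 and -1.10 in thoracic TKO, against 0.27 and 0.88 in lumbar WT and 1.07 and 0.56 in thoracic WT. All TKO libraries lay below all WT libraries on it, with lumbar TKO replicate 1 close to lumbar WT replicate 1. With Lin28b included, lumbar TKO replicate 1 was at 0.26 and lumbar WT replicate 1 at 0.14, so that the genotypes overlapped. Set against the mean of the other members, Pearson's r over the 8 libraries was highest for Nrep (0.949) and then 0.888 for Cd24a, 0.876 for Dcx, 0.874 for Fabp7, 0.826 for Hmgn2, 0.821 for Sox11, 0.79 for Sox4 and 0.632 for Hmga2. Lin28b did not follow them, at 0.10. The points share libraries, depth and genotype, so these are descriptions.

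Among the genes most like the average profile of all 9 tested members, of 15275 genes with a mean of 1 CPM or more, were Akap7 (r = 0.995), Tmem65 (0.991), Fgf13 (0.991) and Dek (0.989), over the same 8 libraries. Fgf13 averaged 54.1 ± 13.3 CPM in TKO and 94.7 ± 12.3 CPM in WT (SD, n = 4 each), and Dek 28.7 ± 9.29 CPM in TKO and 47.5 ± 8.11 CPM in WT. The log2 changes of Fgf13 and Dek were -0.81 and -0.73, and neither passed (edgeR adjusted p = 0.088 and 0.157). Those of Akap7 and Tmem65 were smaller, at -0.40 and -0.45 (edgeR adjusted p = 0.188 and 0.161). The profile that these genes were picked to match was itself mostly lower in TKO, so their lower level follows from the choice.

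TKO replicate 2 was the lowest library of all 8 for 7 of 9 members, Nrep, Dcx and Sox11 in lumbar cord and Fabp7, Cd24a, Sox4 and Hmgn2 in thoracic cord. Those are the libraries with the higher intron and lower mitochondrial shares. Without both of them, the log2 change was -0.66 for Nrep, -0.53 for Fabp7, -0.34 for Cd24a, -0.27 for Hmgn2, -0.26 for Dcx, -0.24 for Sox11 and -0.22 for Sox4. That of Hmga2 was -0.88 and that of Lin28b -0.03. With the mitochondrial share as a covariate, edgeR called Nrep (-0.72, adjusted p = 0.000558) and Fabp7 (-0.59, adjusted p = 0.0067), where it called 2.45% of all genes lower. None of the other 7 was called in that fit, and several log2 changes were nearer 0 than without the covariate, at -0.27 for Hmgn2, -0.26 for Dcx and -0.25 for Sox11.

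**Figure D3:**
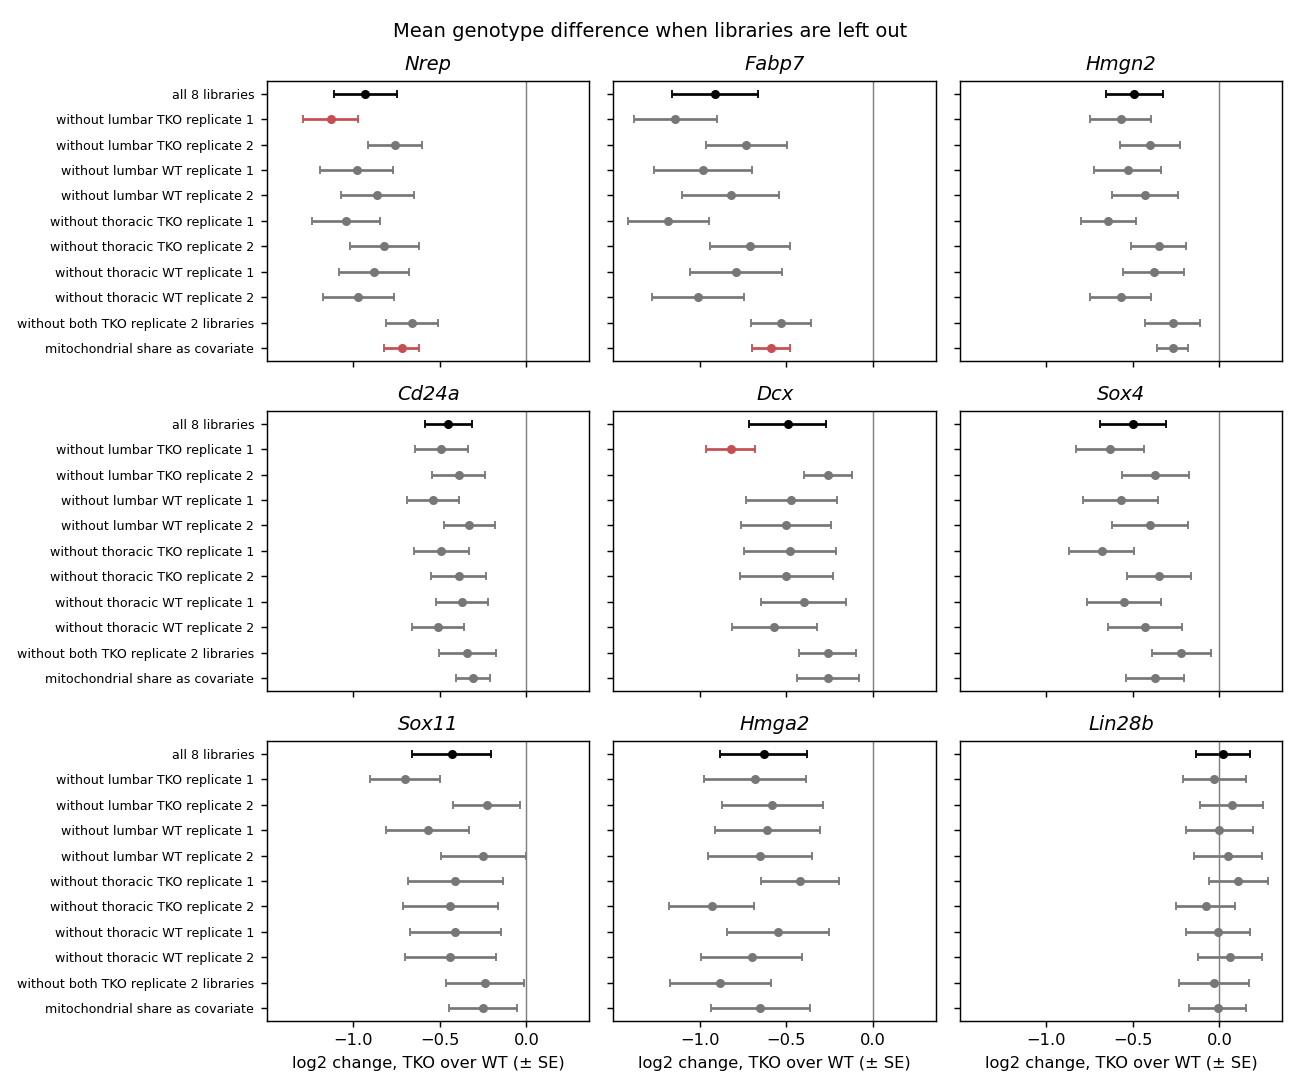
Log2 change of TKO over WT, averaged over segments, with its standard error, for each member with all 8 libraries (black), without each library in turn, without both TKO replicate 2 libraries and with the mitochondrial share as a covariate; red marks an adjusted p under 0.05. All members but Lin28b stay below 0, Nrep between -1.13 and -0.66, and Dcx moves with the lumbar TKO libraries, from -0.82 without replicate 1 to -0.26 without replicate 2.

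Other genes of these programmes were uneven. Of 25 tested genes of newborn and immature neurons outside the members, 17 were below 0 and 8 above, none was called by edgeR, 7 were lower and 1 higher at an unadjusted p under 0.05, and the median log2 change was -0.10. DESeq2 called 5 lower and 1 higher, and limma none. The growth cone gene Basp1 was at 141 ± 14.7 CPM in TKO and 227 ± 21.9 CPM in WT (SD, n = 4 each), with a log2 change of -0.68 and an edgeR adjusted p of 0.0588. Gap43, another growth cone gene, had a log2 change of -0.43, the collapsin response mediator gene Dpysl3 one of -0.55 and the RNA-binding protein gene Elavl2 one of -0.61.

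Of 24 progenitor and radial glia genes, 12 lay above and 12 below 0, none was called by edgeR, 3 were lower and 1 higher at an unadjusted p under 0.05, and the median was -0.03. DESeq2 and limma called none. Hes1, a Notch effector, was at 2.8 ± 0.293 CPM in TKO and 4.0 ± 0.663 CPM in WT, and Msi1, a progenitor RNA-binding protein gene, at 31.6 ± 4.18 CPM in TKO and 24.4 ± 2.91 CPM in WT (SD, n = 4 each). The members' median, for comparison, was -0.49.

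Among 20 tested genes of the fetal let-7 axis and growth, 11 lay above and 9 below 0, with a median of 0.11. None was called by edgeR, 3 were higher and 4 lower at an unadjusted p under 0.05, DESeq2 called 3 lower (H19, Igf2 and Plagl1) and limma none. The largest differences were in the imprinted growth genes Igf2, at 51.5 ± 17.1 CPM in TKO and 158 ± 46.2 CPM in WT, and H19, at 8.12 ± 3.63 CPM in TKO and 40.2 ± 15 CPM in WT (SD, n = 4 each). Their edgeR adjusted p-values were 0.0512 and 0.0573. Dlk1, of the same list, went the other way, at 48.6 ± 8.93 CPM in TKO and 34.6 ± 2.61 CPM in WT (SD, n = 4 each, edgeR adjusted p = 0.175).

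Of 9 other HMG chromatin protein genes, 7 lay below 0 and 2 above, none was called by edgeR, 3 were lower at an unadjusted p under 0.05, and the median was -0.26. DESeq2 called Hmgb2 and Hmgb3 lower, and limma none. Hmgb2, a gene of dividing cells, averaged 14.1 ± 3.43 CPM in TKO and 26.0 ± 5.77 CPM in WT, and Hmgb3 44.6 ± 6.34 CPM in TKO and 69.1 ± 11.2 CPM in WT (SD, n = 4 each). Lowest by median, next to the newborn neuron, progenitor, let-7 and other HMG lists, was that of proliferating cells, at -0.71. Its genes do not tell dividing neural cells from other dividing cells. All 17 of 17 were below 0, with none called by edgeR or limma and 7 called lower by DESeq2. At an unadjusted p under 0.05 in edgeR, 15 were lower. The list summed to 113 to 173 CPM in TKO and 199 to 226 CPM in WT. Mki67, the Ki-67 gene of cycling cells, averaged 14.9 ± 4.53 CPM in TKO and 28.7 ± 4.17 CPM in WT (SD, n = 4 each).

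**Figure D4:**
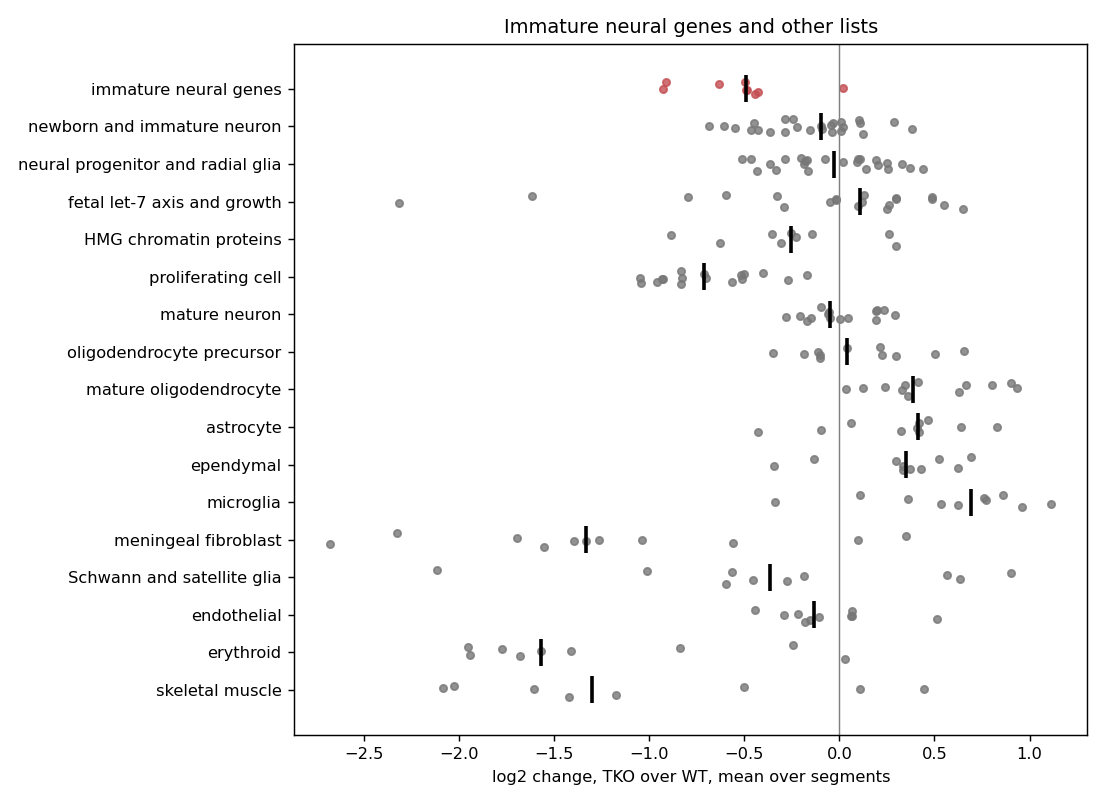
Log2 change of TKO over WT, averaged over segments, for each tested gene of the immature neural group (red) and of 16 other lists (grey), with the list's median as a black bar. The members have a median of -0.49, progenitor and newborn neuron lists lie near 0 and proliferating cell genes lie at -0.71. Erythroid, meningeal fibroblast and skeletal muscle genes lie lower at -1.57, -1.33 and -1.30, the muscle genes with a wide spread between WT libraries. Mature oligodendrocyte genes lie at 0.39.

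Cell type markers differed beside the members, and their part in the members' differences was not tested. Mature neuron genes had a median log2 change of -0.05 and summed to 6150 to 7510 CPM in TKO and 6810 to 7730 CPM in WT, overlapping ranges, and neuronal genes were present in every library, as the spinal cord label calls for. All 12 mature oligodendrocyte genes were above 0, with 3 called higher by edgeR (Klk6, Opalin and Hapln2), and they summed to 56100 to 72100 CPM in TKO and 46600 to 48500 CPM in WT. Astrocyte genes summed to 7920 to 9510 CPM in TKO and 7070 to 7790 CPM in WT, and oligodendrocyte precursor genes to 1530 to 2100 CPM in TKO and 1710 to 1920 CPM in WT.

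Markers of other cells, from around the cord and within it, were as follows. Meningeal fibroblast genes summed to 138 to 296 CPM in TKO and 307 to 593 CPM in WT, without overlap, with a median log2 change of -1.33, and edgeR called Lum and Dcn lower. Skeletal muscle genes had a median log2 change of -1.30, with 6 of 8 tested below 0, a thoracic median of -2.24 and a lumbar median of -0.33. Their sum was 34 to 67 CPM in TKO and 32.1 to 117 CPM in WT. The 2 thoracic WT libraries lay far apart, at 40.4 and 117 CPM. In WT the SD exceeded the mean for Tnnt3 (4.85 ± 7.75 CPM) and Acta1 (4.97 ± 5.95 CPM). Pvalb, which spinal neurons also express, was the main part of the sum, at 40.4 ± 10.1 CPM in TKO and 29.8 ± 6.07 CPM in WT (SD, n = 4 each). Schwann and satellite glia genes summed to 330 to 1730 CPM in lumbar TKO and 1590 to 2630 CPM in lumbar WT. In thoracic cord their sums were 168 to 359 CPM in TKO and 216 to 372 CPM in WT. Of these 10 genes, 3 lay above 0 and 7 below, with a median log2 change of -0.36, and edgeR called Cdh19 higher (adjusted p = 0.0437). Endothelial genes summed to 299 to 418 CPM in TKO and 341 to 430 CPM in WT. Of 10 microglia genes, 9 were above 0, with a median of 0.69, edgeR called Ctss and Csf1r higher, and they summed to 562 to 878 CPM in TKO and 510 to 602 CPM in WT. Ependymal genes summed to 41.2 to 51.9 CPM in TKO and 30.2 to 38.2 CPM in WT. No marker on these lists that the tables hold was at 0 in every library.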

How the data were processed

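Per the file headers, the authors deposited whole-number counts per gene (exon, intron and gene reads, total and unique) and RPKM, in 1 table per library. Reads were placed on mm10 (the submitters' processing notes name that build). The library kit is stranded and selects polyadenylated RNA, per the labels' protocols. No aligner, counter or strand setting is named: not given in the sources used here. The members and gene lists were chosen with earlier results of these data known.

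Total gene reads were fitted with edgeR 4.0.16 (robust quasi-likelihood, TMM, filterByExpr over 4 groups) in R 4.3.3, with a mean per group of segment and genotype. DESeq2 1.42.0 and limma 3.58.1 on log2(RPKM + 0.5), for genes with a mean RPKM of 0.1 or more, were alternatives. The RPKM folds understate low genes. Named besides the members were up to 4 genes per list with the smallest p and the 5 genes of most similar profile, 1 of which is not reported here. Seed matches were counted in GENCODE vM21 3′ UTRs.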

Additional observations from a re-analysis of the deposited data

How the results depend on the processing

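Over both segments 61 genes were called, and DESeq2 called 672, limma on RPKM 6, edgeR without a filter 310, with unique reads 104, with exon reads 12, with the mitochondrial share as covariate 807, and with lumbar and thoracic libraries summed 9, while leaving out 1 library gave 7 (lumbar WT replicate 2) to 194 (lumbar TKO replicate 1), and every library but lumbar TKO replicate 2 moved the count by over 1.5 times. In lumbar cord 7 became 41 (DESeq2), 17 (no filter), 2 (exon reads), 197 (mitochondrial share), 16 (without both TKO replicate 2 libraries) and 1 to 6 (without 1 library, fewest without lumbar WT replicate 2). In thoracic cord 6 became 429 (DESeq2), 1 (limma), 65 (no filter), 987 (mitochondrial share), 13 (without both TKO replicate 2 libraries), 23 (thoracic libraries alone) and 0 to 11 (without 1 library). For the difference between segments 1 became 2 (DESeq2), 0 (limma, unique and exon reads), 115 (mitochondrial share) and 0 to 2 (without 1 library), and between segments 14 became 34 (DESeq2), 44 (mitochondrial share) and 9 to 19 (without 1 library, fewest without lumbar WT replicate 2).

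Of the members, none was called over both segments by the edgeR test, against 2 with DESeq2, 1 without a filter (Nrep, with 0.529% of all genes called lower), 2 with the mitochondrial share, none with lumbar and thoracic libraries summed (adjusted p = 0.186 for Nrep and 0.257 for Fabp7) and 0 to 2 without 1 library (Nrep and Dcx without lumbar TKO replicate 1). Lumbar calls became 1 with the mitochondrial share (0.721% of all genes called lower), and thoracic calls 1 with DESeq2 and 3 with the mitochondrial share (2.16%). Lin28b, at 0.02, turned to -0.06 (limma), -0.10 (exon reads), -0.01 (mitochondrial share), -0.03 (without both TKO replicate 2 libraries) and -0.08 to 0.11 (without 1 library, -0.03, -0.08 and -0.01 being below 0), and in thoracic cord, where 1 library left out gave -0.37 to 0.02, to 0.02 without TKO replicate 1. In lumbar cord Dcx turned to 0.22 without TKO replicate 2, alone or with its thoracic counterpart (-0.93 to 0.22 without 1 library), and Cd24a to 0.00 without WT replicate 2 (-0.40 to 0.00). Of the lumbar minus thoracic differences, 6 of 9 took the opposite sign under at least 1 alternative, and of the thoracic minus lumbar changes all 9 did, with none called. The causes were not tested.

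Libraries with the same replicate number did not deviate from their group means together in every pair of groups. Same-number correlations were -0.486 to -0.382 in the 3 pairs of groups with lumbar WT and 0.464 to 0.60 in the other 3. Libraries of different genotypes cannot share a mouse, so these correlations do not show whether replicate numbers pair samples. Within genotype, the same-number correlation between segments was 0.592 in TKO and -0.382 in WT. These values do not settle whether both segments came from the same animals. With a replicate block 222 genes were called over both segments, 11 in thoracic cord and 46 between segments within genotype, with 2 members called (Nrep and Fabp7, adjusted p = 0.0287 and 0.0429, where 0.627% of all genes were called lower). With lumbar WT numbers crossed, an alternative chosen after seeing the data, 4760 genes were called over both segments and 396 in lumbar cord. It called 4991 in thoracic cord, 323 for the difference and 47 between segments. Over both segments it called 5 members, all lower in TKO (Nrep, Fabp7, Hmgn2, Cd24a and Sox4), where 12.9% of all genes were called lower. In lumbar cord 3 members were called lower, beside 175 of 17067 genes, and in thoracic cord 6, beside 2213 of 17067.

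Depth limits Igf2bp1 and Hmga2, with 7 and 122 reads in TKO and 4 and 197 in WT. With 2 libraries a group, the edgeR fit over all 8 libraries had 4 residual degrees of freedom.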
